A study of Rattus norvegicus with 4 samples.

Results

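The genes described here are 34 genes of cholesterol and fatty acid synthesis, with their regulators, in cultured rat Schwann cells (SCs). They were chosen by name for their place in these pathways, and their values were not part of the rule. Earlier results of these data were known when they were chosen. All 34 had a row among the 17949 genes counted, and all 34 were among the 12446 genes with enough counts to test. They comprise 7 genes of the mevalonate arm, 11 of the arm from squalene to cholesterol, 6 regulators and transport genes, 4 genes of fatty acid synthesis, and 6 of elongation and desaturation.

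Cells build cholesterol from acetyl-CoA through mevalonate, farnesyl pyrophosphate, squalene and lanosterol. The membrane-bound transcription factors SREBP1 and SREBP2 switch on this pathway and fatty acid synthesis when sterols are scarce, after SCAP has escorted them out of the endoplasmic reticulum, where INSIG proteins otherwise hold them. SCs need both products in quantity, because the myelin they wrap around peripheral axons is rich in cholesterol and in long-chain fatty acids.

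RNA-seq was performed on primary SCs from rat sciatic nerve 48 h after infection with a lentivirus. The Lenti-AS group (n = 2) received a virus that expresses Egr2-AS, an antisense RNA to the promoter of Egr2, the transcription factor that drives myelination, and the Lenti-GFP group (n = 2) received the control virus. All cultures were kept in DMEM with 10% fetal bovine serum, 4 µM forskolin and 5 ng/ml heregulin-β1, so serum lipids and a cyclic AMP agonist were present in both groups. Egr2-AS was carried by the vector pLVX-DsRed-Express2-N1 and the control by pLVX-AcGFP1-N1, so the groups also differed in the fluorescent reporter. Each sample is labelled a biological replicate, but whether replicates came from separate animals is not given, so p-values measure the spread between these samples only. The comparison addresses whether expression of Egr2-AS is accompanied by a change in lipid synthesis genes. The level of Egr2-AS itself was not analysed here.

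Counts totalled between 74024323 and 96185890 per sample, and the 34 genes took between 0.794% and 0.823% of them. Of 9 SC markers, 8 were measured, and all 8 were above 1 CPM (counts of a gene relative to the scaled total of the sample) in every sample. Their summed level was 6525 to 6569 CPM in the Lenti-GFP samples and 7103 to 8348 CPM in the Lenti-AS samples. Summed levels of 7 fibroblast markers were 3685 to 4110 CPM in Lenti-GFP and 2701 to 4340 CPM in Lenti-AS. Of these 7, 4 were above 1 CPM in every sample, and the collagens Col1a1 and Col3a1 made up nearly all of the sum. Pdgfra and Fbln1 stood at 6.77 CPM or less, and Dcn, Lum and Dpt at 0.0321 CPM or less. All 6 adipocyte markers, which mark another lipid-making cell, stayed at or under 0.226 CPM. The 7 macrophage markers summed to at most 4.34 CPM and the 6 endothelial markers to at most 21.0 CPM. The endothelial sum was nearly all Tek, at 14.7 to 20.2 CPM. None of the markers measured was at 0 in every sample. The Lenti-AS samples stood further apart from each other than the Lenti-GFP samples. Lenti-AS 2 held 1985 CPM of erythroid genes, almost all of it globin, against 7.33 to 9.08 CPM in the other samples. Lenti-AS 1 held the highest level of Col1a1, a fibroblast collagen, at 2131 CPM, where Lenti-AS 2 had 290 CPM. The other fibroblast markers did not share this gap. Col3a1 had 2198 CPM in Lenti-AS 1 and 2400 CPM in Lenti-AS 2, and Fbln1 had 6.44 and 6.77 CPM. Pdgfra had 4.06 CPM in Lenti-AS 1 and 3.83 CPM in Lenti-AS 2. With the globin genes left out of the fit, all 34 genes had the same sign and call. The part of the other differences in the results below was not tested beyond leaving out each sample in turn.

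Levels are given as CPM scaled by edgeR's TMM factors, which correct for library composition. Where 2 values are given for a group, replicate 1 comes before replicate 2. CPM is not divided by transcript length, so it compares samples for 1 gene and not genes with each other. Fold changes are on the log2 scale, Lenti-AS over Lenti-GFP, with the standard error (SE) from edgeR's quasi-likelihood test over all genes tested. A gene was called at a Benjamini-Hochberg adjusted p under 0.05 together with a fold change of at least 1.3 in either direction.

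The fitted changes of the synthesis genes were small as a group, and 1 of the 34, the stearoyl-CoA desaturase Scd, was called. Scd rose, and 0 of the 34 were called lower. Among all genes tested, 1.31% were called higher and 0.667% lower, so 1 called gene of 34 is near the background. The fitted changes were split, with 18 genes above 0 and 16 below. Their median log2 fold change was 0.03, beside 0.01 over all genes tested. The median size of the change without its sign was 0.10 on the log2 scale for the 34 genes and 0.15 for all genes tested. An unadjusted p under 0.05 was found for 12 of the 34 genes, 7 higher and 5 lower, against 21.8% of all genes tested. The 2 groups did not overlap in 23 of the 34 genes, 12 higher and 11 lower in Lenti-AS, against 54.9% of all genes tested. In bulk samples, fewer cells that express a gene and less of its RNA per cell cannot be told apart.

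DESeq2, run on the same counts as an alternative, called 4 of the 34 higher and 0 lower. Its background was higher as well, with 4.86% of genes called higher and 1.39% lower among those to which it gave an adjusted p. The 4 were Scd, the fatty acid synthase Fasn, the SREBP escort Scap and the sterol isomerase Ebp. A further 4 genes had a DESeq2 adjusted p under 0.05 with a change smaller than 1.3-fold. These were Elovl1 (higher) and Elovl6, Stard4 and Hmgcs1 (lower).

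**Figure D1:**
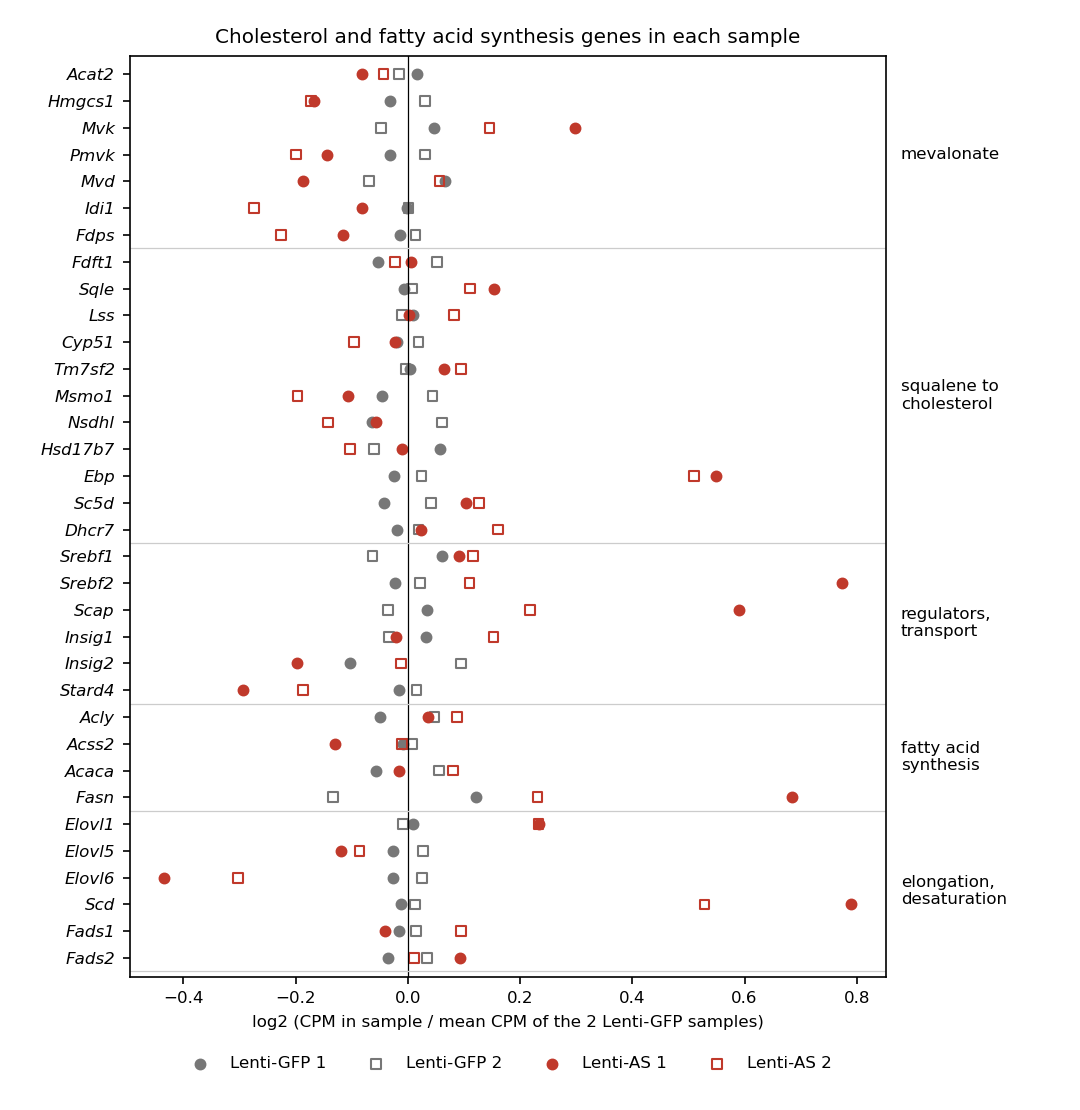
Level of each of the 34 genes in each of the 4 samples, as log2 of its CPM over the mean CPM of the 2 Lenti-GFP samples; grey marks Lenti-GFP, red marks Lenti-AS, circles replicate 1 and squares replicate 2. Most points lie near 0, both Lenti-AS samples of Scd, Ebp and Elovl1 lie to the right, and for Srebf2, Scap and Fasn Lenti-AS 1 lies well to the right of Lenti-AS 2.

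Stretches of promoter are shown first for the called gene and for 3 mevalonate genes whose fitted changes were nearly equal. Each is the 150 bases before the transcription start in RefSeq (GRCr8), read 5′ to 3′ on the gene's own strand. Capitals mark CCAAT, the box bound by NF-Y, and GGGCGG, the box bound by Sp1, on either strand, so ATTGG is a CCAAT on the opposite strand. Both factors are known partners of SREBPs. The Scd stretch is chr1:253231732-253231881 (minus strand), that of Hmgcs1 is chr2:53382154-53382303 (plus strand), that of Idi1 is chr17:66547525-66547674 (minus strand), and that of Fdps is chr2:176804817-176804966 (minus strand).
Scd: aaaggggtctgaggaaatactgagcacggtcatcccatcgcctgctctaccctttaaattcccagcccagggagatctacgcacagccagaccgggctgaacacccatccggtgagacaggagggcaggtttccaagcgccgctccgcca
Hmgcs1: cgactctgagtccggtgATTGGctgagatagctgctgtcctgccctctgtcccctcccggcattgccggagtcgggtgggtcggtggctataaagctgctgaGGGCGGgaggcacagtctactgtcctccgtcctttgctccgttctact
Idi1: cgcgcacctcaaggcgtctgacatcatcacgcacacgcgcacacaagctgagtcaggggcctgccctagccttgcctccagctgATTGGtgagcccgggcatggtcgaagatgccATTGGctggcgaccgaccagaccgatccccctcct
Fdps: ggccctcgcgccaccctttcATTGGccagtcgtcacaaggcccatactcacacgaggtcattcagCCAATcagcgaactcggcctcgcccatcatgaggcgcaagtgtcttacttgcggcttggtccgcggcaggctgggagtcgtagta
The stretch of Scd held neither box. That of Hmgcs1 held 1 of each, and those of Idi1 and Fdps held 2 CCAAT boxes each and no GGGCGG.

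Over the window from 250 bases before to 50 bases after the start, a promoter was listed for 27 of the 34 genes. None was listed for Pmvk, Fdft1, Sqle, Stard4, Acaca, Fasn and Elovl6, so the shares below leave these genes out. CCAAT was found on either strand in 20 of the 27 (74.1%), beside 38.2% of the 9487 genes tested that had a promoter listed. A gene with several promoters listed was counted if any of them held the letters. GGGCGG was found in 21 of the 27 (77.8%), beside 62.3%. By role, CCAAT was present in 5 of 6 genes of the mevalonate arm and 7 of 9 in the arm from squalene to cholesterol. It was present in 4 of 5 regulators and transport genes, 2 of 2 of fatty acid synthesis, and 2 of 5 of elongation and desaturation. Elovl1, Scd and Fads2 were the 3 without it in the last of these. The 9-letter form TCACNCCAC of the sterol regulatory element was found in 0 of 27, beside 1.22% of the same 9487 genes. Its shorter part CACNCCAC, which lies inside the 9-letter form and was added after those results were seen, was found in Acat2, Ebp, Insig1, Elovl5 and Fads1 (18.5%, beside 6.1%). These matches are letters in a window and say nothing about which factor was bound in these cells.

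In the mevalonate arm, 6 of the 7 genes had a fitted change below 0, but 0 were called in either direction by edgeR or DESeq2, and 4 had an unadjusted edgeR p under 0.05. The median log2 fold change was -0.17. Summed over the 7 genes, the arm stood at 1916 and 1966 CPM in Lenti-GFP and at 1769 and 1712 CPM in Lenti-AS. Both Lenti-AS sums were thus below both Lenti-GFP sums.

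Hmgcs1, the cytosolic enzyme that makes HMG-CoA, stood at 1003 and 1048 CPM in Lenti-GFP and at 914 and 910 CPM in Lenti-AS. The groups did not overlap, and the Lenti-AS samples lay close together. The log2 fold change was -0.17 ± 0.05 (SE), with an adjusted p of 0.150 by edgeR's quasi-likelihood test. Pmvk, the phosphomevalonate kinase, had 72.3 and 75.4 CPM in Lenti-GFP against 66.9 and 64.3 CPM in Lenti-AS. The fitted change was -0.17 ± 0.07 (SE) on the log2 scale, also with no overlap.

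Fdps, which makes farnesyl pyrophosphate at the branch to sterols and prenyl groups, had 472 and 481 CPM in Lenti-GFP against 440 and 408 CPM in Lenti-AS. Its log2 fold change was -0.17 ± 0.06 (SE). Idi1, the isomerase that acts just before it, had 198 and 199 CPM in Lenti-GFP against 188 and 164 CPM in Lenti-AS, and a log2 fold change of -0.17 ± 0.07 (SE). For both genes Lenti-AS 2 was the lowest sample. Hmgcs1, Pmvk, Fdps and Idi1 thus had fitted changes of almost the same size, with edgeR adjusted p-values between 0.150 and 0.243. This held with all 4 samples: without Lenti-AS 1 the log2 fold change was -0.27 for Idi1 and -0.23 for Fdps, and without Lenti-AS 2 it was -0.08 and -0.11.

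Mvk, the mevalonate kinase, was the 1 gene of the arm with a fitted change above 0. It had 18.8 and 17.7 CPM in Lenti-GFP against 22.4 and 20.2 CPM in Lenti-AS, a log2 fold change of 0.22 ± 0.09 (SE) and an edgeR adjusted p of 0.209. Acat2, the acetyl-CoA thiolase, and Mvd, the decarboxylase, each had a log2 fold change of -0.06. For Mvd the groups overlapped, with Lenti-AS 2 at 34.5 CPM beside 34.8 CPM in Lenti-GFP 1. Without Lenti-AS 1 the fitted change of Mvd was above 0, at 0.06.

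The 11 genes from squalene to cholesterol were divided, with 6 fitted above 0, 5 below 0, and 0 called by edgeR. An unadjusted edgeR p under 0.05 was found for 2 of them, and DESeq2 called 1. Their median log2 fold change was 0.04. Their summed level was 1674 and 1741 CPM in Lenti-GFP and 1696 and 1649 CPM in Lenti-AS, so the groups overlapped.

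Ebp, which shifts the double bond of the sterol ring late in the pathway, had the widest gap of these genes. It stood at 5.09 and 5.26 CPM in Lenti-GFP and at 7.58 and 7.37 CPM in Lenti-AS, from 475, 499, 664 and 554 counts. The gap between the groups was wider than the spread within either pair. Ebp had a log2 fold change of 0.53 ± 0.12 (SE), with an adjusted p of 0.0903 by edgeR and 0.0178 by DESeq2. Over all alternatives run for Ebp the adjusted p ran from 0.00549 to 0.638.

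Sqle, the squalene epoxidase and a rate-limiting enzyme, had 179 and 181 CPM in Lenti-GFP against 200 and 194 CPM in Lenti-AS. Its log2 fold change was 0.13 ± 0.05 (SE), with an edgeR adjusted p of 0.212. Msmo1, which removes methyl groups from the sterol ring, had 423 and 450 CPM in Lenti-GFP against 405 and 381 CPM in Lenti-AS. Its log2 fold change was -0.15 ± 0.06 (SE), with an edgeR adjusted p of 0.230. Sqle and Msmo1, both oxygen-using enzymes of this arm, thus differed in sign, and in both the groups did not overlap.

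The other 8 genes had log2 fold changes between -0.10 and 0.12. They were the squalene synthase Fdft1, the lanosterol synthase Lss, the demethylase Cyp51, the reductases Tm7sf2 and Dhcr7, the dehydrogenases Nsdhl and Hsd17b7, and the desaturase Sc5d. Fdft1 was nearest to 0, with 172 and 186 CPM in Lenti-GFP and 180 and 176 CPM in Lenti-AS. The gap between its 2 Lenti-GFP samples exceeded the difference between the groups. Dhcr7, which makes cholesterol in the final reduction of the Kandutsch-Russell branch, had 88.8 and 91.2 CPM in Lenti-GFP and 91.4 and 101 CPM in Lenti-AS. Hsd17b7 had 381 to 529 counts per sample, and its groups overlapped.

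**Figure D2:**
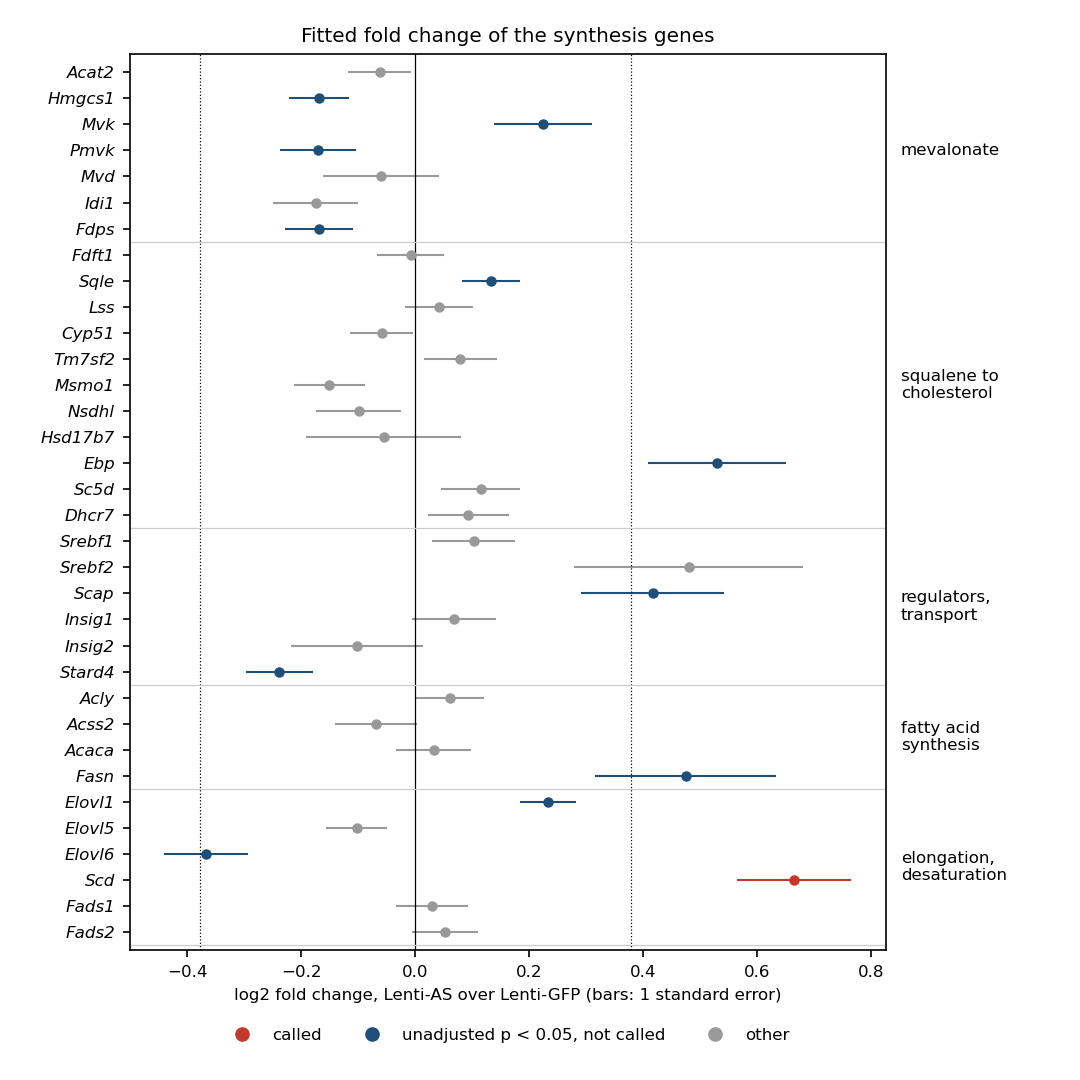
Fitted log2 fold change of each of the 34 genes, Lenti-AS over Lenti-GFP, with bars of 1 standard error; the dotted lines mark a fold of 1.3 in either direction, red marks the called gene, blue an unadjusted p under 0.05 without a call, and grey the rest. Scd is the 1 red point, at 0.67, and 6 of the 7 mevalonate genes lie between -0.17 and -0.06 with Mvk above 0.

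Of the 6 regulators and transport genes, 4 had a fitted change above 0 and 2 below, and 0 were called by edgeR. At an unadjusted edgeR p under 0.05 there were 2, and DESeq2 called 1. The median log2 fold change was 0.09. The regulators with the highest fitted changes were also those in which the Lenti-AS samples differed most from each other.

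Srebf2, which encodes SREBP2, the main activator of the cholesterol genes, stood at 78.0 and 80.4 CPM in Lenti-GFP and at 135 and 85.5 CPM in Lenti-AS. Lenti-AS 1 alone stood far from the others. With a log2 fold change of 0.48 ± 0.20 (SE), it had an edgeR adjusted p of 0.237. The log2 value was 0.11 without Lenti-AS 1 and 0.77 without Lenti-AS 2, and the adjusted p over the alternatives ran from 1.31e-11 to 0.723. The gap between the Lenti-AS samples, 0.66 on the log2 scale, was wider than in 90.1% of all genes tested. Srebf2 also holds the microRNA gene Mir33 within it, and counts of the gene do not show the microRNA.

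Scap, the escort of the SREBPs, stood at 26.6 and 25.3 CPM in Lenti-GFP and at 39.0 and 30.2 CPM in Lenti-AS. The groups did not overlap, and Lenti-AS 1 again stood highest. Scap had a log2 fold change of 0.42 ± 0.13 (SE), with an adjusted p of 0.142 by edgeR and 0.0315 by DESeq2. The log2 value was 0.22 without Lenti-AS 1 and 0.59 without Lenti-AS 2, and the adjusted p over the alternatives ran from 7.90e-07 to 0.684.

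Srebf1, which encodes the SREBP1 isoforms that favour fatty acid genes, had 69.4 and 63.8 CPM in Lenti-GFP and 70.9 and 72.2 CPM in Lenti-AS. The isoforms have separate starts, and counts per gene do not separate them. Its log2 fold change was 0.10 ± 0.07 (SE), with an edgeR adjusted p of 0.443. Insig1, itself a target of the SREBPs, had 220 and 210 CPM in Lenti-GFP and 212 and 239 CPM in Lenti-AS. Insig2 had 12.3 and 14.1 CPM in Lenti-GFP and 11.5 and 13.1 CPM in Lenti-AS. In both Insig genes the groups overlapped, with log2 fold changes of 0.07 and -0.10.

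Stard4, a carrier that moves cholesterol between membranes, was the lowest of this list. It stood at 250 and 256 CPM in Lenti-GFP and at 206 and 222 CPM in Lenti-AS, with no overlap. For Stard4 the log2 fold change was -0.24 ± 0.06 (SE), with an adjusted p of 0.103 by edgeR and 0.0110 by DESeq2, and a fold of 0.848 that is too small for a call. Over the alternatives the adjusted p ran from 0.000507 to 0.686.

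The 4 genes that make palmitate included 3 with a fitted change above 0 and 0 called by edgeR, at a median log2 fold change of 0.05. Fasn alone had an unadjusted edgeR p under 0.05 and a call by DESeq2. Acly, which supplies cytosolic acetyl-CoA from citrate, had 2082 and 2226 CPM in Lenti-GFP and 2208 and 2288 CPM in Lenti-AS. Acaca, the acetyl-CoA carboxylase of the committed step, had 160 and 173 CPM in Lenti-GFP and 165 and 176 CPM in Lenti-AS. In both genes the groups overlapped, with log2 fold changes of 0.06 and 0.03. Acss2, which makes acetyl-CoA from acetate, had a log2 fold change of -0.07.

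Fasn, the synthase that assembles palmitate, stood at 127 and 107 CPM in Lenti-GFP and at 188 and 137 CPM in Lenti-AS. The groups did not overlap, but Lenti-AS 2 was only a little above Lenti-GFP 1. For Fasn the log2 fold change was 0.48 ± 0.16 (SE), with an adjusted p of 0.169 by edgeR and 0.0175 by DESeq2. The log2 value was 0.23 without Lenti-AS 1 and 0.68 without Lenti-AS 2, and the adjusted p over the alternatives ran from 5.55e-09 to 0.724. The gap between the Lenti-AS samples was wider than in 84.1% of genes.

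Among the 6 genes of elongation and desaturation, which lengthen palmitate and put double bonds into fatty acids, 1 was called. The list had 4 fitted changes above 0 and 2 below, and a median log2 fold change of 0.04.

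Scd, which makes oleate from stearate, stood at 42.2 and 43.0 CPM in Lenti-GFP and at 73.7 and 61.5 CPM in Lenti-AS, from 3943, 4075, 6458 and 4621 counts. The groups did not overlap, and the gap between the groups exceeded the gap within either pair. The means were 42.6 ± 0.534 CPM (SD, n = 2) and 67.6 ± 8.64 CPM (SD, n = 2). Scd rose 1.59-fold, a log2 fold change of 0.67 ± 0.10 (SE), with an adjusted p of 0.0417 by edgeR's quasi-likelihood test. The call was lost with the replicate number as a block (0.66, adjusted p = 0.0866), without Lenti-GFP 1 (0.66, adjusted p = 0.337) and without Lenti-GFP 2 (0.68, adjusted p = 0.426), all by edgeR. It held without Lenti-AS 1 (0.53) and without Lenti-AS 2 (0.79), and the adjusted p over all alternatives ran from 8.45e-11 to 0.426.

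Scd2, a paralog of Scd outside the 34 genes, had 2192 and 2265 CPM in Lenti-GFP and 3251 and 2794 CPM in Lenti-AS. Lenti-AS 1 was the highest sample for both paralogs. The log2 fold change of Scd2 was 0.44 ± 0.08 (SE), with an adjusted p of 0.0607 by edgeR and 3.20e-05 by DESeq2, which called it. Of the edgeR fits on all 4 samples, those with library totals and with no filter on low counts also called it. The log2 value was 0.33 without Lenti-AS 1 and 0.54 without Lenti-AS 2. Over the alternatives the adjusted p ran from 4.96e-07 to 0.426. The 2 paralogs are close in sequence, and the setting for reads that match both is not given in the sources used here, so their separate counts are uncertain.

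Elovl1, which makes the very long chains of sphingolipids, stood at 193 CPM in Lenti-GFP 1, 190 in Lenti-GFP 2 and 225 in both Lenti-AS samples. The replicates were close and the groups did not overlap. The log2 fold change was 0.23 ± 0.05 (SE), with an adjusted p of 0.0797 by edgeR and 0.00312 by DESeq2, at a fold of 1.18 that is under the limit for a call. Over the alternatives the adjusted p ran from 0.00312 to 0.676.

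Elovl6, which lengthens palmitate to stearate and so makes the substrate of Scd, stood at 34.1 and 35.4 CPM in Lenti-GFP and at 25.7 and 28.2 CPM in Lenti-AS. The groups did not overlap, and the difference was opposite in sign to that of Scd. The log2 fold change was -0.37 ± 0.07 (SE), with an adjusted p of 0.0710 by edgeR and 0.00431 by DESeq2, and 0.000128 to 0.587 over the alternatives. The table lists a copy of Elovl6 in a row of its own, with 18.9 and 21.6 CPM in Lenti-GFP and 15.5 and 15.4 CPM in Lenti-AS. The log2 fold change of the copy was -0.39 ± 0.09 (SE), with an adjusted p of 0.0945 by edgeR and 0.0215 by DESeq2. DESeq2 called the copy lower, and it is not counted among the 34. How reads were shared between the copies is uncertain.

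Elovl5, which lengthens polyunsaturated chains, had 147 and 153 CPM in Lenti-GFP and 138 and 141 CPM in Lenti-AS, a log2 fold change of -0.10 ± 0.05 (SE). The desaturases Fads1 and Fads2, which act on the same chains, had log2 fold changes of 0.03 and 0.05. The groups overlapped in both Fads genes.

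**Figure D3:**
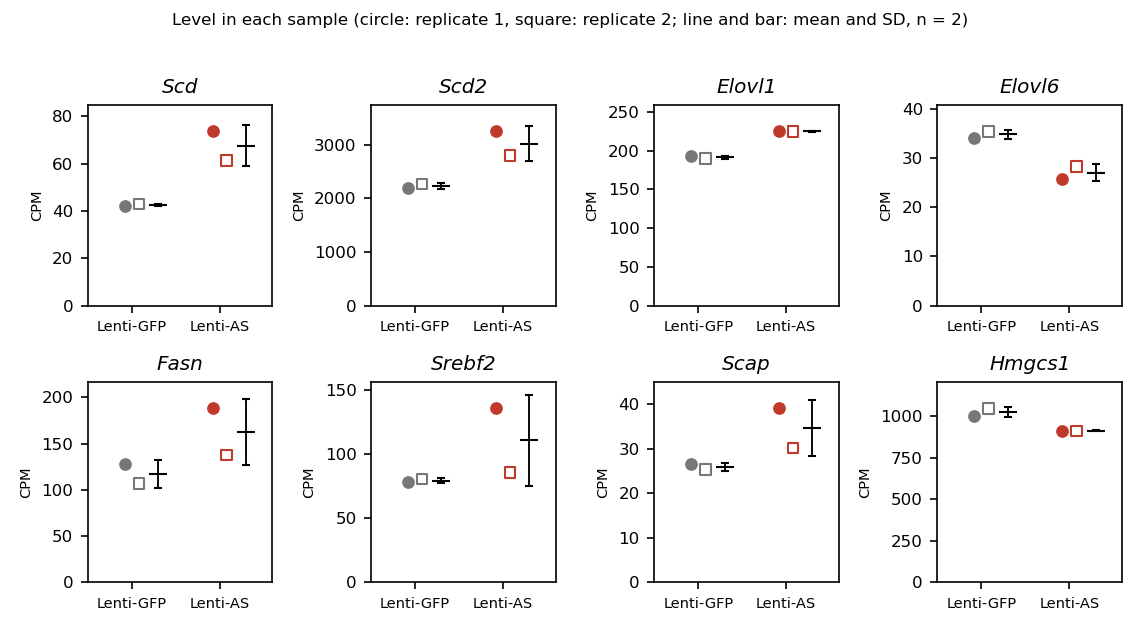
CPM in each sample for 7 of the 34 genes and the paralog Scd2, each on its own axis from 0; circles are replicate 1, squares replicate 2, and the line and bar are the mean and SD of the 2 samples. Lenti-AS is above Lenti-GFP with a clear gap for Scd, Scd2 and Elovl1 and below it for Elovl6 and Hmgcs1, while the bars of Srebf2 and Scap are wide because Lenti-AS 1 is far above Lenti-AS 2.

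Other genes of these pathways were read from 3 lists of neighbouring functions. Of 19 genes that take up, store, move or sense cholesterol, 11 were fitted above 0 and 8 below, 2 were called higher and 0 lower by edgeR, and the median log2 fold change was 0.17. DESeq2 called 3 higher and 0 lower. Over all genes tested, edgeR called 1.31% higher and 0.667% lower, with 6385 fitted above 0 and 6061 below. DESeq2 called 4.86% higher and 1.39% lower among the genes to which it gave an adjusted p. These shares stand beside the counts of each of the 3 lists. Npc1, which releases cholesterol from lysosomes, rose from 48.7 and 50.4 CPM in Lenti-GFP to 78.1 and 75.2 CPM in Lenti-AS (0.63 ± 0.07 SE on the log2 scale, edgeR adjusted p = 0.0237). Apoe, the lipoprotein that carries secreted lipid, rose from 169 and 175 CPM to 228 and 235 CPM (0.43 ± 0.05 SE, edgeR adjusted p = 0.0276). Both calls were lost with the replicate block and without either Lenti-GFP sample, at adjusted p-values from 0.0697 to 0.396. Soat1, which esterifies cholesterol for storage, had a log2 fold change of 0.36 with an edgeR adjusted p of 0.0499 and was under the 1.3-fold limit, which it passed with library totals. Abca1, which exports cholesterol, was the gene called by DESeq2 beside Npc1 and Apoe, and it is named after its values were seen. It had 973 and 997 CPM in Lenti-GFP and 1236 and 1429 CPM in Lenti-AS, a log2 fold change of 0.44 with an adjusted p of 0.0576 by edgeR and 2.58e-05 by DESeq2, and 3.36e-07 to 0.445 over the alternatives. With all 4 samples, edgeR with no filter on low counts also called Abca1. Its log2 value was 0.54 without Lenti-AS 1 and 0.33 without Lenti-AS 2.

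Of 9 tested genes of the isoprenoid branch, 1 was called higher and 0 lower by edgeR, and their median change was 0.03 on the log2 scale. The called gene was Fntb, the beta subunit of farnesyltransferase, which rose from 16.8 and 16.3 CPM in Lenti-GFP to 26.8 and 23.4 CPM in Lenti-AS (0.60 ± 0.09 SE, edgeR adjusted p = 0.0406). Its call was also lost with the replicate block (adjusted p = 0.0877) and without either Lenti-GFP sample (0.323 and 0.440). Dhdds, of dolichol synthesis, and Pggt1b, of geranylgeranyl transfer, had log2 fold changes of 0.39 and -0.21 and were not called by edgeR, while DESeq2 called Dhdds higher (adjusted p = 0.0238, and 0.00515 to 0.683 over the alternatives). Of 22 tested other fatty acid genes, 18 were fitted above 0 and 4 below, 0 were called by edgeR, 3 had an unadjusted edgeR p under 0.05, and the median was 0.10. DESeq2 called 2 of them higher, Scd2 and Lpin1, and 0 lower. Beside the counts of both lists, the shares called higher over all genes were 1.31% by edgeR and 4.86% by DESeq2. Scd2, Lpin1 (0.62) and Elovl7 (1.01) had the smallest p-values of that list, with Elovl7 at 1.69 CPM or less in every sample.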

How the data were processed

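RNA-seq counts of 4 samples of primary rat SCs were analysed, 2 Lenti-GFP and 2 Lenti-AS, grouped by their labels and column names. The authors sequenced 50 bp paired-end reads, counted them per gene with featureCounts over RefSeq exons on rn6 and deposited raw counts. The aligner is hisat2 in the paper's methods and GSNAP in the submitters' processing notes. Settings for strand and multimapped reads are not given in the sources used here, so overlapping genes are uncertain. Of the 34 members, 11 overlap another gene in RefSeq GRCr8, 3 of them a coding gene (Idi1, Srebf1 and Acaca). Of the 17949 genes, 1623 had 0 counts, and 1 repeated header row was dropped.

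The test was edgeR 4.0.16 under R 4.3.3, run on the 12446 genes that reached 10 counts in 2 or more samples (TMM, glmQLFit, glmQLFTest, no block), with adjustment over all of them. The biological coefficient of variation was 12.1%. The script was tested on simulated data. DESeq2 1.42.0 gave no adjusted p for 2413 genes. The smallest two-sided p of an exact permutation test with 2 samples a group is 0.333. The chi-square per gene between replicates was 26.0 in Lenti-GFP and 83.1 in Lenti-AS, above the sampling noise of 1 library counted again. Counting error is small at this depth, and the number of samples limits precision.

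The members and lists were chosen with earlier results of these data known. The named genes are all members, with values in every sample for the called members, those with an unadjusted p under 0.05 and the regulators, and, of the 3 neighbouring lists, the called genes and the 3 with the smallest p. Abca1 and, of the members, Idi1, Msmo1 and the others given with sample values were added after their values were seen. Alternatives were DESeq2, RLE factors, library totals, no filter, limma-voom 3.58.1, the newer quasi-likelihood fit, a replicate block, no fold limit and leaving out each sample. Promoters came from RefSeq GRCr8 and were searched on both strands.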

Additional observations from a re-analysis of the deposited data

How the results depend on the processing

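The count of members called higher was 1, and DESeq2 gave 4, the replicate block 0, and fits without 1 sample 0 to 5. It was 0 without either Lenti-GFP sample, 2 without Lenti-AS 1 (Scd and Ebp) and 5 without Lenti-AS 2. The count called lower was 0, and 0 to 1 without 1 sample, the 1 being Elovl6 without Lenti-AS 2. In these fits the spread comes from 1 pair alone, and the lone sample is assumed to vary like that pair. The median over all members (0.03) was 0.0631 with library totals, which moved the median of all genes from 0.0071 to 0.0390, and -0.0129 to 0.0682 without 1 sample. The median of the mevalonate and sterol genes (-0.06) was -0.0256 with library totals and -0.0361 to -0.0161 without 1 sample. The median of the fatty acid genes (0.04) stayed above 0 in every alternative, but came near it without 1 sample (0.0098 to 0.0903). Without Lenti-GFP 1 it was 0.0178, beside 0.0136 over all genes, and with library totals 0.0749, beside 0.0390. The sign of Fdft1 was reversed with library totals (0.0240) and without 1 sample (-0.0566 to 0.0472). Without 1 sample it was also reversed for Mvd (-0.186 to 0.0564), Hsd17b7 (-0.112 to 0.0079), Insig1 (-0.0209 to 0.153), Insig2 (-0.197 to 0.0021), Acaca (-0.0192 to 0.0914) and Fads1 (-0.0400 to 0.0951). The other 27 of 34 kept their sign in all 4 such fits. Over all genes, 163 were called higher and 83 lower, against 488 and 139 by DESeq2, 3 and 14 with the replicate block, 0 and 1 without either Lenti-GFP sample, 570 and 271 without Lenti-AS 1, and 1266 and 253 without Lenti-AS 2. Samples that share a number had deviations from their group means that did not correlate (r = -0.0176), so the number is not taken as a pairing. The block changed the call of Scd and of no other member. RLE factors, no filter on low counts, limma-voom, the newer quasi-likelihood fit and leaving the globin genes out, the last chosen after seeing the data, left all 34 genes with the same sign and call. Apart from these values, the cause of each change was not tested.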
